A study of Danio rerio with 14 samples.

Results

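The period and Rev-erb genes are the repressors of the circadian clock. In the vertebrate clock, Clock and Bmal proteins switch on the period (per) and cryptochrome genes, and Period and Cryptochrome proteins return to block Clock and Bmal, which closes the daily loop. Rev-erb proteins, encoded by the nr1d genes, are nuclear receptors that hold down transcription of bmal genes and so couple a further loop to the core loop. Zebrafish carry light-entrained clocks in most tissues, the eye among them, and their per and nr1d genes include duplicates retained from the genome duplication of teleost fish, such as per1a with per1b and nr1d2a with nr1d2b.

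The genes described here are per1a, per1b, per2, per3, nr1d1, nr1d2a, nr1d2b and nr1d4b. They were found by gene symbol, current or older, and make up 8 of the 8947 named genes measured. They carried 15 of 17950 probes: 1 each for per1a, per1b, nr1d1 and nr1d4b, 2 for per3, and 3 each for per2, nr1d2a and nr1d2b. Of these 15 probes, the second per2 probe and the nr1d4b probe kept the name given in the array annotation because their transcript accession had no match in the gene table.

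Transcripts were measured in eyes of wild-type AB zebrafish larvae in 4 groups of 3 RNA samples, each holding the eyes of 10 larvae from 1 plate of 24 eggs. Larvae in the TBBPA group at 5 days post fertilization (dpf) had been raised from fertilization in 200 µg/L tetrabromobisphenol A, a brominated flame retardant, and control larvae at 5 dpf in medium without it. Larvae in the TBBPA group at 8 dpf had the same exposure to 5 dpf followed by 3 days in clean water, and control larvae at 8 dpf spent those days in clean water too. According to the methods, the control medium held the solvent dimethyl sulfoxide, all plates shared a cycle of 14 h light and 10 h dark, and all larvae were sampled within a few hours of the morning. The clock time of each sample is not given in the sources used here. A difference of sampling time between groups, if there was one, therefore cannot be told apart from treatment or age. The samples were hybridised in pairs on 14 two-colour arrays, 6 of which paired TBBPA with control at 5 dpf, 4 TBBPA with control at 8 dpf, and 4 an age with the other. Control replicate 1 and TBBPA replicate 1 at 5 dpf were on 4 arrays each and the other 10 samples on 2.

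Each value is a log2 ratio, so a level below is relative: the level of a sample on the log2 scale, centred on the mean of the 12 samples for that probe, and levels of different probes cannot be set against each other. Fold changes are log2 differences ± standard error (SE) from limma over all 17950 probes, with Benjamini-Hochberg adjusted p. "Fell" and "rose" mean an adjusted p under 0.05, and "called" means in addition a log2 fold change beyond 0.75 in size, the threshold of the study. In this model the share of variance of the RNA sample was estimated as 0, so SE and p take arrays and not plates as replicates. This share is 1 value for all probes. For a probe whose RNA samples vary more than it allows, SE and p are too small. With the 12 plates as replicates, 0 probes of the whole table were called with limma in either comparison of TBBPA with control. In that fit 1288 probes at 5 dpf (7.18%) and 882 at 8 dpf (4.91%) had an unadjusted p under 0.05, where a share of about 0.05 would arise if no probe changed. Precision is limited by how few arrays and samples there are. In pooled eyes, fewer cells that express a gene and less RNA per cell cannot be told apart.

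The probes called lower after TBBPA belonged to 3 of the 8 genes, per1b, nr1d1 and nr1d2b, at both ages (the plot of sample levels). At 5 dpf, 7 of the 15 probes fell and 0 rose, where 2.84% of all probes fell and 4.23% rose, and 3 were called lower, where 0.351% of all probes were. At 8 dpf, 5 fell and 0 rose, where 0.696% of all probes fell and 0.696% rose, and 4 were called lower, where 0.117% of all probes were. The median log2 fold change of the 15 probes was -0.40 at 5 dpf and -0.38 at 8 dpf, beside -0.00 and 0.00 over all probes. The 3 TBBPA levels lay wholly below the 3 control levels for 9 probes at 5 dpf, where this held for 9.18% of all probes, and for 5 probes at 8 dpf, where it held for 2.69%. An exact permutation test over 3 against 3 samples cannot give a two-sided p under 0.10.

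**Figure D1:**
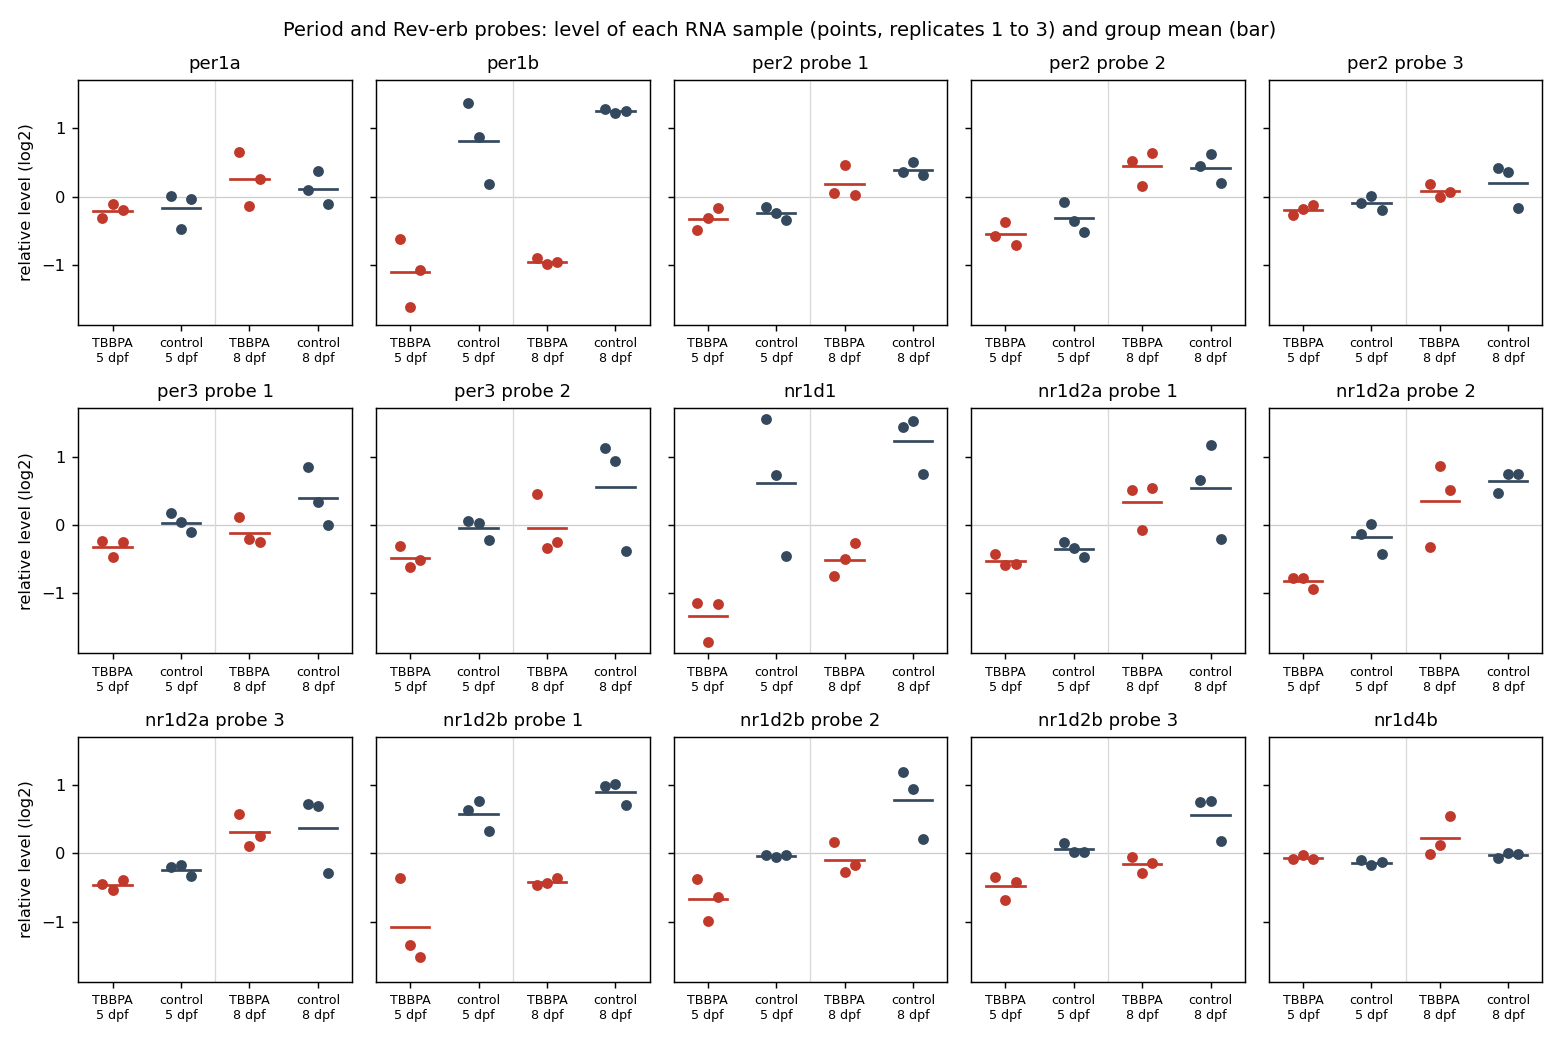
Relative level (log2, centred per probe) of each of the 15 probes in each RNA sample, with replicates 1 to 3 as points from left to right and the group mean as a bar, for TBBPA (red) and control (blue) at 5 and 8 dpf. TBBPA and control points are far apart for per1b, nr1d1 and nr1d2b probe 1 at both ages, and mixed for per1a and per2.

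Among the period genes, per1b was called lower after TBBPA at both ages and its duplicate per1a at neither. The level of per1b, a repressor of the core loop, was -0.62, -1.63 and -1.08 in the TBBPA samples of 5 dpf, against 1.37, 0.88 and 0.18 in the control samples of 5 dpf. At 8 dpf it was -0.91, -0.99 and -0.96 after TBBPA, against 1.28, 1.22 and 1.25 in controls. The groups did not overlap at either age, and the SD of the levels at 8 dpf was 0.04 after TBBPA and 0.03 in controls, smaller than the SD of 0.50 after TBBPA and 0.60 in controls at 5 dpf (n = 3 each). The fitted change was -1.94 ± 0.20 at 5 dpf (3.83-fold lower, adjusted p = 0.000106) and -2.20 ± 0.23 at 8 dpf (4.60-fold lower, adjusted p = 0.00126). This was the second most negative fold change of the 17950 probes at 5 dpf and the most negative at 8 dpf. The call held when any 1 of the 12 samples was left out, at both ages. With plates as replicates the changes were -1.92 (adjusted p = 0.0585) and -2.21 (adjusted p = 0.0828), which miss the threshold.

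On the arrays that held a TBBPA and a control sample of the same age together, per1b was lower after TBBPA on 6 of 6 arrays at 5 dpf, with ratios between -3.17 and -0.71, and on 4 of 4 arrays at 8 dpf, between -2.28 and -2.09. The smallest differences at 5 dpf were those from control replicate 3, -0.71 against TBBPA replicate 1 and -1.36 against TBBPA replicate 3. Control replicate 3 was the lowest control sample of 5 dpf for per1b.

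The other period genes moved less or did not pass the test. The level of per1a was -0.31, -0.11 and -0.20 in TBBPA samples of 5 dpf, against 0.01, -0.47 and -0.03 in controls, and 0.65, -0.13 and 0.26 after TBBPA at 8 dpf, against 0.09, 0.37 and -0.12 in controls. These groups overlapped at both ages. The fitted change of per1a was -0.09 ± 0.11 at 5 dpf (adjusted p = 0.717) and 0.21 ± 0.13 at 8 dpf (adjusted p = 0.640), and per1a was lower after TBBPA on 2 of 6 direct arrays at 5 dpf and 0 of 4 at 8 dpf.

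Transcription of per2 is induced by light in zebrafish. Its 3 probes gave -0.07, -0.29 and -0.12 at 5 dpf (adjusted p = 0.683, 0.301 and 0.418) and -0.22, 0.05 and -0.07 at 8 dpf (adjusted p = 0.415, 0.977 and 0.887), with 95% intervals that reached no further than -0.64 at 5 dpf and -0.44 at 8 dpf. TBBPA and control samples overlapped for all 3 probes at both ages. The first per2 probe lay at -0.49, -0.32 and -0.17 after TBBPA and at -0.16, -0.24 and -0.34 in controls at 5 dpf, and at 0.05, 0.47 and 0.02 after TBBPA and at 0.36, 0.50 and 0.32 in controls at 8 dpf. The second lay between -0.70 and -0.37 after TBBPA and between -0.52 and -0.07 in controls at 5 dpf, and between 0.16 and 0.64 after TBBPA and between 0.20 and 0.63 in controls at 8 dpf. For both of these per2 probes every sample of 8 dpf stood above every sample of 5 dpf. For the third this held in TBBPA larvae and not in controls, which lay at 0.42, 0.35 and -0.17 at 8 dpf and at -0.09, 0.01 and -0.19 at 5 dpf.

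The gene per3 encodes a further Period protein, which in mammals is not essential for rhythm. Its first probe lay at -0.24, -0.47 and -0.25 in TBBPA samples of 5 dpf, against 0.17, 0.04 and -0.10 in controls, with no overlap, and fell by 0.40 ± 0.09 on the log2 scale (adjusted p = 0.0179). The second probe gave a change of -0.45 ± 0.13, which missed the threshold (adjusted p = 0.0583). At 8 dpf the 2 probes gave -0.45 (adjusted p = 0.0599) and -0.46 (adjusted p = 0.218), with overlapping groups. The control levels of the second probe at 8 dpf were 1.12, 0.94 and -0.38, so that control replicate 3 stood below all 3 TBBPA samples, at 0.45, -0.33 and -0.25. Without control replicate 3, the second probe was called lower at 8 dpf (-0.83). On direct arrays, the first per3 probe was lower after TBBPA on 6 of 6 at 5 dpf, between -0.59 and -0.13, and on 4 of 4 at 8 dpf, between -0.75 and -0.15. The second was lower on 6 of 6 at 5 dpf, between -0.71 and -0.18, but on 2 of 4 at 8 dpf, with ratios between -0.71 and 0.11.

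**Figure D2:**
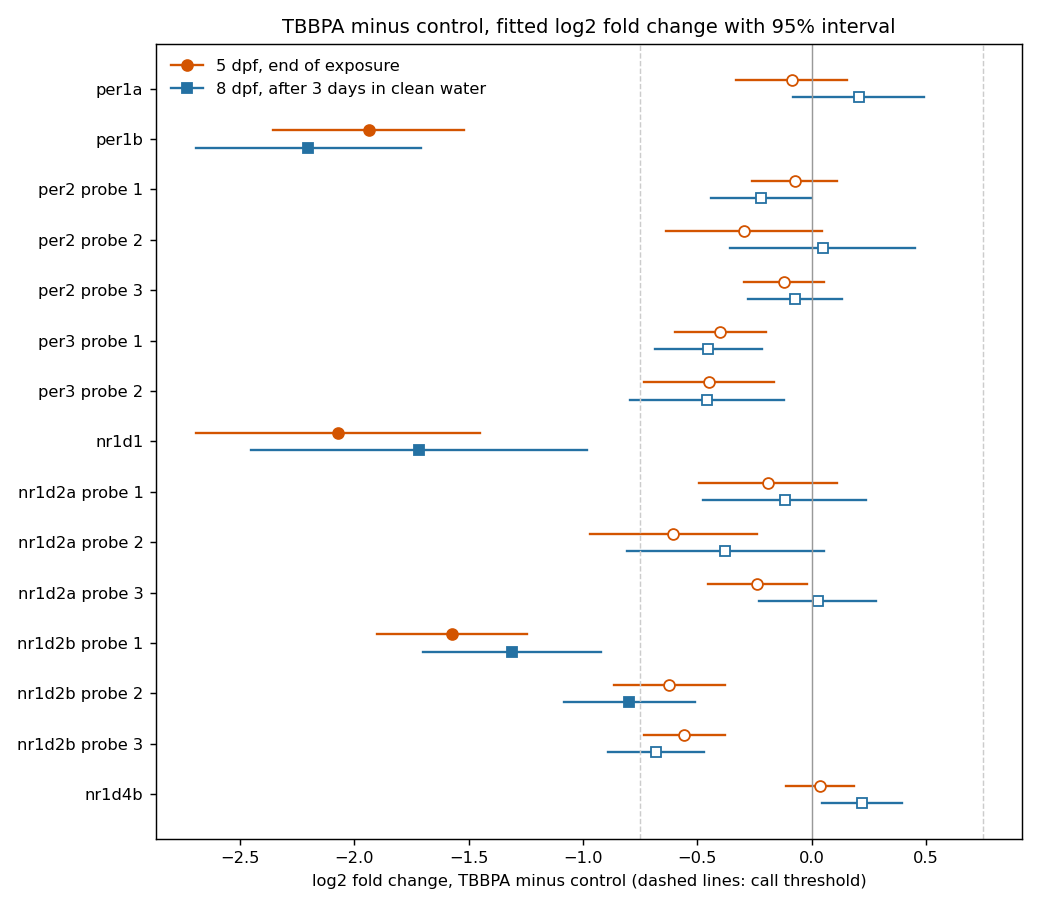
Fitted log2 fold change, TBBPA minus control, of each probe at 5 dpf (orange circles) and 8 dpf (blue squares) with its 95% interval from limma. Filled marks are called, and dashed lines stand at -0.75 and 0.75. Marks for per1b, nr1d1 and nr1d2b probe 1 are filled at both ages, and nr1d2b probe 2 at 8 dpf.

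Among the Rev-erb genes, nr1d1 (Rev-erb alpha) and nr1d2b, a duplicate of Rev-erb beta, were lower after TBBPA. The level of nr1d1 was -1.15, -1.72 and -1.16 in TBBPA samples of 5 dpf, against 1.55, 0.74 and -0.45 in controls. At 8 dpf it was -0.75, -0.49 and -0.27 after TBBPA, against 1.44, 1.52 and 0.75 in controls. The groups did not overlap at either age, but the control samples of 5 dpf spread widely (1.01 SD, against 0.33 after TBBPA). The fitted change was -2.07 ± 0.29 at 5 dpf (4.20-fold lower, adjusted p = 0.00118), the most negative of all probes, and -1.72 ± 0.34 at 8 dpf (3.29-fold lower, adjusted p = 0.0231). On direct arrays the nr1d1 ratios ran between -3.52 and -0.38 at 5 dpf, lower on 6 of 6, and between -2.56 and -0.80 at 8 dpf, lower on 4 of 4. As for per1b, the smallest nr1d1 differences at 5 dpf were those from control replicate 3, -0.38 and -1.03.

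The calls of nr1d1 rested on single samples to a greater extent than those of per1b. Without control replicate 1 of 5 dpf its change at 5 dpf was -1.44 (adjusted p = 0.108), while per1b stayed called at -1.52 (adjusted p = 0.0122) and nr1d2b probe 1 at -1.46 (adjusted p = 0.0158). At 8 dpf the nr1d1 call was lost when any of 6 samples was left out. The adjusted p was then 0.505 without TBBPA replicate 1 of 8 dpf (change -1.37), 0.218 without control replicate 1 of 8 dpf, 0.175 without control replicate 2 of 8 dpf, 0.0745 without TBBPA replicate 3 of 8 dpf, 0.0562 without TBBPA replicate 1 of 5 dpf and 0.0506 without control replicate 2 of 5 dpf. With plates as replicates nr1d1 gave -1.96 (adjusted p = 0.182) at 5 dpf and -1.74 (adjusted p = 0.236) at 8 dpf.

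The 3 probes of nr1d2b moved in 1 direction and by unequal amounts. The first lay at -0.36, -1.35 and -1.52 in TBBPA samples of 5 dpf, against 0.64, 0.78 and 0.34 in controls, and at -0.46, -0.44 and -0.35 after TBBPA at 8 dpf, against 0.99, 1.02 and 0.71 in controls. Its groups did not overlap at either age, and its change was -1.57 ± 0.15 at 5 dpf (2.97-fold lower, adjusted p = 8.5e-05) and -1.31 ± 0.18 at 8 dpf (2.48-fold lower, adjusted p = 0.00362). The second and the third nr1d2b probes fell by 0.62 (adjusted p = 0.00465) and 0.56 (adjusted p = 0.00153) at 5 dpf and by 0.80 (adjusted p = 0.00912) and 0.68 (adjusted p = 0.00405) at 8 dpf.

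For both of these nr1d2b probes TBBPA samples lay below controls at both ages, and on direct arrays both were lower after TBBPA on 6 of 6 at 5 dpf and 4 of 4 at 8 dpf. The second was at -0.38, -0.99 and -0.63 after TBBPA and at -0.02, -0.05 and -0.02 in controls at 5 dpf, and at 0.17, -0.27 and -0.17 after TBBPA and at 1.2, 0.95 and 0.22 in controls at 8 dpf. At 8 dpf its TBBPA replicate 1 thus came within 0.05 of control replicate 3. The third was at -0.34, -0.68 and -0.42 after TBBPA and at 0.16, 0.03 and 0.03 in controls at 5 dpf, and at -0.05, -0.28 and -0.14 after TBBPA and at 0.76, 0.77 and 0.18 in controls at 8 dpf. Over the 12 samples the second and the third probes followed each other (r = 0.98) more closely than either followed the first (r = 0.82 and 0.88), as a description of 12 levels from 1 array loop. The ratios averaged per gene put nr1d2b at -0.92 at 5 dpf (adjusted p = 0.000216) and -0.93 at 8 dpf (adjusted p = 0.00152).

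At 8 dpf the nr1d2b calls also depended on samples and on the unit of replication. The call of the first probe was lost without control replicate 2 of 8 dpf (adjusted p = 0.0568) or TBBPA replicate 1 of 8 dpf (adjusted p = 0.134). That of the second probe, at -0.80 near the threshold of 0.75, was lost without any of 5 samples: replicate 1 of each of the 4 groups and control replicate 2 of 8 dpf, with changes between -0.78 and -0.71. In the other direction, the second probe was called at 5 dpf without TBBPA replicate 1 of 5 dpf (-0.79), and the third at 8 dpf without control replicate 3 (-0.87) or TBBPA replicate 3 (-0.76) of 8 dpf. With plates as replicates the first probe gave -1.66 (adjusted p = 0.0585) at 5 dpf and -1.32 (adjusted p = 0.155) at 8 dpf.

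The remaining Rev-erb genes gave no call. The 3 probes of nr1d2a, the other Rev-erb beta duplicate, gave -0.19, -0.61 and -0.24 at 5 dpf, of which the second fell (adjusted p = 0.0457), and -0.12, -0.38 and 0.03 at 8 dpf (adjusted p = 0.895, 0.526 and 0.982). The second nr1d2a probe lay at -0.77, -0.78 and -0.93 in TBBPA samples of 5 dpf, against -0.13, 0.02 and -0.42 in controls, with no overlap, and at -0.32, 0.87 and 0.51 after TBBPA at 8 dpf, against 0.47, 0.75 and 0.74 in controls, with overlap. The first and the third nr1d2a probes followed each other over the 12 samples (r = 0.95) more closely than the second (r = 0.63 and 0.60). At 8 dpf the first lay at 0.52, -0.07 and 0.54 after TBBPA and at 0.67, 1.17 and -0.21 in controls, so that control replicate 3 was below all TBBPA samples. The level of nr1d4b, a Rev-erb gene for which no role is given here, was -0.08, -0.02 and -0.09 after TBBPA at 5 dpf, against -0.10, -0.17 and -0.13 in controls. At 8 dpf it was -0.01, 0.13 and 0.55 after TBBPA, against -0.07, 0.00 and -0.01 in controls. Its change was 0.04 ± 0.07 (adjusted p = 0.815) at 5 dpf and 0.22 ± 0.08 (adjusted p = 0.271) at 8 dpf, and it was higher after TBBPA on 5 of 6 direct arrays at 5 dpf and 3 of 4 at 8 dpf.

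**Figure D3:**
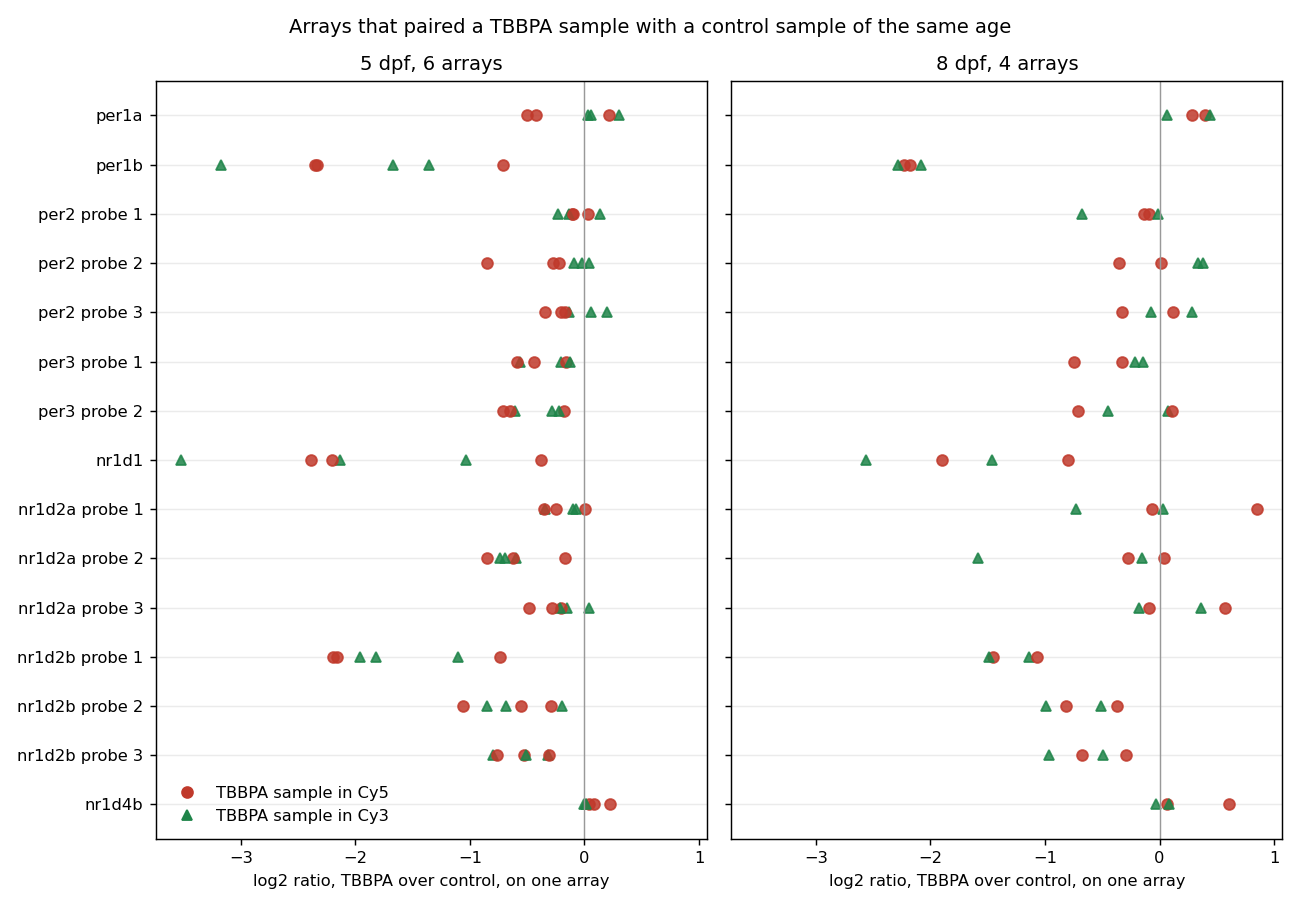
Log2 ratio of TBBPA over control on each array that paired a TBBPA sample with a control sample of the same age (left, 6 arrays at 5 dpf, right, 4 arrays at 8 dpf), by probe, with circles for TBBPA in Cy5 and triangles for TBBPA in Cy3. For per1b, per3 probe 1, nr1d1 and all 3 nr1d2b probes every mark lies below 0, in both dye orientations.

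Paralogs were then set against each other within arrays, which asks whether their responses to TBBPA differed. Of 39 pairs of probes from different genes of a family (17 period pairs, 22 Rev-erb pairs), a pair was taken to differ when it passed an adjusted p of 0.05 with each of its probes as the one subtracted. In these fits the share of variance of the RNA sample was not always 0: it was 0.70 with per1b subtracted, 0.52 with nr1d1 and 0.75 with nr1d2b probe 1. The main fit took a share of 0 for these 3 probes too, so their SE and p there may be too small. The adjusted p take this share into account, while the 95% intervals of pairs take arrays as independent and so leave it out. The adjusted p also lean on a prior spread over all probes, and the subtracted probe, present in every value, enters that prior. With per1b subtracted the fit had 1061 prior degrees of freedom beside 11 residual ones. A small adjusted p of a pair is therefore not a measure from that pair alone. At 5 dpf 17 pairs passed, 6 period and 11 Rev-erb, and at 8 dpf 16 passed, 6 period and 10 Rev-erb. All 6 period pairs that passed held per1b, at both ages, and these were all the period pairs that hold per1b. The change of per1a exceeded that of per1b by 1.85 at 5 dpf (95% interval 1.25 to 2.45, larger adjusted p = 1.2e-06) and by 2.41 at 8 dpf (1.69 to 3.12, larger adjusted p = 1.37e-08).

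The change of per1b minus that of the 3 per2 probes was -1.86, -1.64 and -1.82 at 5 dpf and -1.98, -2.25 and -2.13 at 8 dpf. Minus that of the 2 per3 probes it was -1.54 and -1.49 at 5 dpf and -1.75 and -1.74 at 8 dpf. All 6 pairs passed when any 1 sample was left out. With plates as replicates 4 of the 6 passed at both ages, and the pairs of per1b with per2 probe 3 (adjusted p = 0.276 at 5 dpf and 0.0976 at 8 dpf) and with per3 probe 2 (0.516 and 0.270) did not. These differences set per1b apart from most of the array and not from its paralogs alone, since 99.9% of all other probes at 5 dpf and 100% after rounding (17947 of 17949) at 8 dpf lay above per1b at an adjusted p under 0.05.

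No pair among per1a, per2 and per3 passed. The change of per1a differed from those of the 3 per2 probes by -0.01 (-0.44 to 0.41), 0.21 (-0.09 to 0.50) and 0.03 (-0.26 to 0.32) at 5 dpf, and by 0.43 (-0.07 to 0.93), 0.16 (-0.19 to 0.50) and 0.28 (-0.07 to 0.62) at 8 dpf, so differences of some size between them remain possible. Intervals that left out 0 were found for 10 of the 17 period pairs at 5 dpf and 12 at 8 dpf, of which 6 at each age held per1b and the others were pairs of per3 with per2 or per1a. The change of per1a was 0.66 above that of each per3 probe at 8 dpf, with 95% intervals of 0.24 to 1.07 and 0.20 to 1.13, but neither passed (larger adjusted p = 0.106 and 0.113). The change of per2 probe 3 lay above those of the 2 per3 probes by 0.28 (0.09 to 0.46) and 0.33 (0.09 to 0.56) at 5 dpf and by 0.38 (0.16 to 0.60) and 0.39 (0.11 to 0.66) at 8 dpf, and these did not pass either (larger adjusted p = 0.124, 0.106, 0.248 and 0.352).

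Among Rev-erb genes, nr1d1 and the first nr1d2b probe did not pass against each other. Their changes differed by -0.50 at 5 dpf (-1.16 to 0.16, larger adjusted p = 0.502) and by -0.41 at 8 dpf (-1.19 to 0.37, larger adjusted p = 0.433). Against the second and the third nr1d2b probe, the change of nr1d1 differed by -1.45 (larger adjusted p = 0.00806) and -1.52 (larger adjusted p = 0.00507) at 5 dpf, which passed, and gave -0.92 (larger adjusted p = 0.0877) and -1.04 (larger adjusted p = 0.0504) at 8 dpf, which did not. Both nr1d1 and nr1d2b probe 1 passed against nr1d4b at both ages. The change of nr1d1 minus that of nr1d4b was -2.11 at 5 dpf and -1.94 at 8 dpf, and the change of nr1d2b probe 1 minus that of nr1d4b was -1.61 at 5 dpf and -1.53 at 8 dpf. The change of nr1d1 minus that of the 3 nr1d2a probes was -1.88, -1.47 and -1.83 at 5 dpf and -1.60, -1.34 and -1.74 at 8 dpf, and each of these pairs passed.

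Between the duplicates nr1d2a and nr1d2b, the 3 nr1d2a probes lay above nr1d2b probe 1 by 1.38, 0.97 and 1.34 at 5 dpf and passed, while at 8 dpf the third passed (1.34) and the first and second did not (1.19, larger adjusted p = 0.150, and 0.93, larger adjusted p = 0.0511). Of the 6 pairs with the other nr1d2b probes, 0 passed at 5 dpf, with the 3 nr1d2a probes minus nr1d2b probe 2 at 0.43, 0.02 and 0.38 and minus nr1d2b probe 3 at 0.37, -0.05 and 0.32. The 95% intervals of nr1d2a probe 1 (0.14 to 0.72 and 0.14 to 0.60) and probe 3 (0.20 to 0.57 and 0.17 to 0.47) left out 0. Those pairs passed with the nr1d2b probe subtracted (adjusted p = 0.00559 to 0.0116) but not with the nr1d2a probe subtracted. The intervals of nr1d2a probe 2 held 0. At 8 dpf the pairs of nr1d2a probe 3 passed, at 0.82 and 0.71, and the other 4, between 0.30 and 0.68, did not. Among these 4, the intervals of nr1d2a probe 1 left out 0 (0.34 to 1.02 and 0.29 to 0.84) and those of probe 2 did not. Over all 22 Rev-erb pairs, intervals left out 0 for 18 at 5 dpf and 17 at 8 dpf. Only 1 of the 2 fits passed for 6 pairs at 5 dpf and 7 at 8 dpf.

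Passes among Rev-erb pairs also moved with single samples. Without control replicate 1 of 5 dpf 11 pairs passed at 5 dpf, and among those that no longer did were nr1d1 minus nr1d2a probe 2 (then -0.83, adjusted p = 0.119) and nr1d1 minus nr1d2b probe 2 (then -0.88, adjusted p = 0.0959). Without control replicate 1 of 8 dpf 8 pairs passed at 8 dpf, and among those that no longer did was nr1d1 minus nr1d4b. As for per1b, 99.8% of all other probes lay above nr1d1 at 5 dpf and 99.8% at 8 dpf at an adjusted p under 0.05, and 99.7% and 98.9% lay above nr1d2b probe 1.

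The effect of TBBPA at 8 dpf was then compared with that at 5 dpf, to ask whether it differed. No group stayed in TBBPA to 8 dpf, so this test cannot tell the 3 days in clean water from 3 days of age. With limma, 0 of the 15 probes passed this test at an adjusted p under 0.05 and 0 had an unadjusted p under 0.05, where 0.0613% of all probes passed and 11.5% had an unadjusted p under 0.05. The smallest adjusted p was 0.55, for nr1d4b. The difference was -0.26 ± 0.30 for per1b (95% interval -0.91 to 0.38), 0.35 ± 0.45 for nr1d1 (-0.61 to 1.32) and 0.26 ± 0.24 for nr1d2b probe 1 (-0.25 to 0.77). These intervals leave room for a change of the effect in either direction.

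Change with age was compared within each treatment (the plot of change with age). In TBBPA larvae this change also takes in the move from exposure to clean water. Of the 15 probes, 4 were called higher at 8 than at 5 dpf in TBBPA larvae, where 3.13% of all probes were, and 2 in controls, where 2.22% were. At an adjusted p under 0.05 alone 8 rose in TBBPA larvae, where 20.9% of all probes did, and 7 in controls, where 14% did, and 0 fell in either. The members' median was 0.49 in TBBPA larvae and 0.43 in controls, beside 0.03 over all probes in both.

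The gene nr1d2a rose with age on all 3 probes. Its change, 8 minus 5 dpf, was 0.95, 1.21 and 0.90 in TBBPA larvae (adjusted p = 0.00305, 0.00218 and 0.000431) and 0.88, 0.98 and 0.64 in controls (adjusted p = 0.00659, 0.0105 and 0.00634). The 3 per2 probes gave 0.59, 0.97 and 0.42 in TBBPA larvae, all past the test, and 0.74, 0.62 and 0.37 in controls, of which the second missed it (adjusted p = 0.0646). By sample level, nr1d2a probe 2 averaged 0.35 ± 0.61 in TBBPA larvae of 8 dpf and -0.83 ± 0.09 in TBBPA larvae of 5 dpf (SD, n = 3 each), and 0.65 ± 0.16 in controls of 8 dpf and -0.18 ± 0.23 in controls of 5 dpf. In controls, levels of nr1d2a probe 3 overlapped between 8 and 5 dpf, and those of probe 1 were separated by a gap of only 0.04. In TBBPA larvae neither probe overlapped between the ages. Every array that joined the ages held TBBPA replicate 1 or control replicate 1 of 5 dpf, so the fitted age changes rest on these samples. Without TBBPA replicate 1 of 5 dpf, all 4 calls in TBBPA larvae were lost. The nr1d2a probes then gave 1.01, 1.34 and 0.87 (adjusted p = 0.130, 0.0908 and 0.0579) and per2 probe 2 gave 0.72 (adjusted p = 0.253). The per2 call was also lost without TBBPA replicate 3 of 8 dpf (0.61, adjusted p = 0.125). In controls the calls of nr1d2a probes 1 and 2 were lost without TBBPA replicate 1 of 5 dpf (0.85 and 0.99, adjusted p = 0.105 and 0.110) or control replicate 1 of 5 dpf (0.92 and 1.02, adjusted p = 0.121 and 0.143). That of probe 1 was lost without control replicate 2 of 8 dpf (0.52, adjusted p = 0.140) and that of probe 2 without control replicate 1 of 8 dpf (0.93, adjusted p = 0.0715).

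The probes with the largest falls after TBBPA, those of per1b and nr1d1 and the first of nr1d2b, did not pass with age in the main fit. In TBBPA larvae, nr1d1 was called higher with age without control replicate 3 of 5 dpf. The first nr1d2b probe was so called without TBBPA replicate 1 of 5 dpf. For per1b the fit gave -0.37 ± 0.30 in TBBPA larvae (adjusted p = 0.330) and -0.11 ± 0.30 in controls (adjusted p = 0.811), and for nr1d1 0.52 ± 0.45 in TBBPA larvae (adjusted p = 0.356) and 0.17 ± 0.45 in controls (adjusted p = 0.798). The first nr1d2b probe gave 0.30 in TBBPA larvae (adjusted p = 0.318) and 0.03 in controls (adjusted p = 0.925). Its mean sample levels differed by more, 0.66 in TBBPA larvae and 0.32 in controls, with overlap between the ages in both. The second nr1d2b probe rose with age in TBBPA larvae (0.54, adjusted p = 0.0226) and in controls (0.71, adjusted p = 0.00635), and the third gave 0.30 in TBBPA larvae (adjusted p = 0.0657) and rose in controls (0.43, adjusted p = 0.0187). The mean sample levels of per1b differed by 0.16 in TBBPA larvae and by 0.44 in controls, opposite in sign to the fit. The ages were joined by 4 arrays alone, each with control replicate 1 or TBBPA replicate 1 of 5 dpf. An age difference of these probes is therefore known less well than the difference between treatments. In order of mean level, per1b ran from TBBPA at 5 dpf (-1.11) and TBBPA at 8 dpf (-0.95) to controls at 5 dpf (0.81) and controls at 8 dpf (1.25), and neither the TBBPA pair nor the control pair differed beyond the SD at 5 dpf. For nr1d1 the order was TBBPA at 5 dpf (-1.34), TBBPA at 8 dpf (-0.51), controls at 5 dpf (0.61) and controls at 8 dpf (1.24). The TBBPA samples of 8 dpf all lay above those of 5 dpf, with means 0.84 apart and SDs of 0.24 at 8 dpf and 0.33 at 5 dpf, although the fit did not pass. Controls of 8 and 5 dpf did not differ beyond the SD of 1.01 among controls of 5 dpf.

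**Figure D4:**
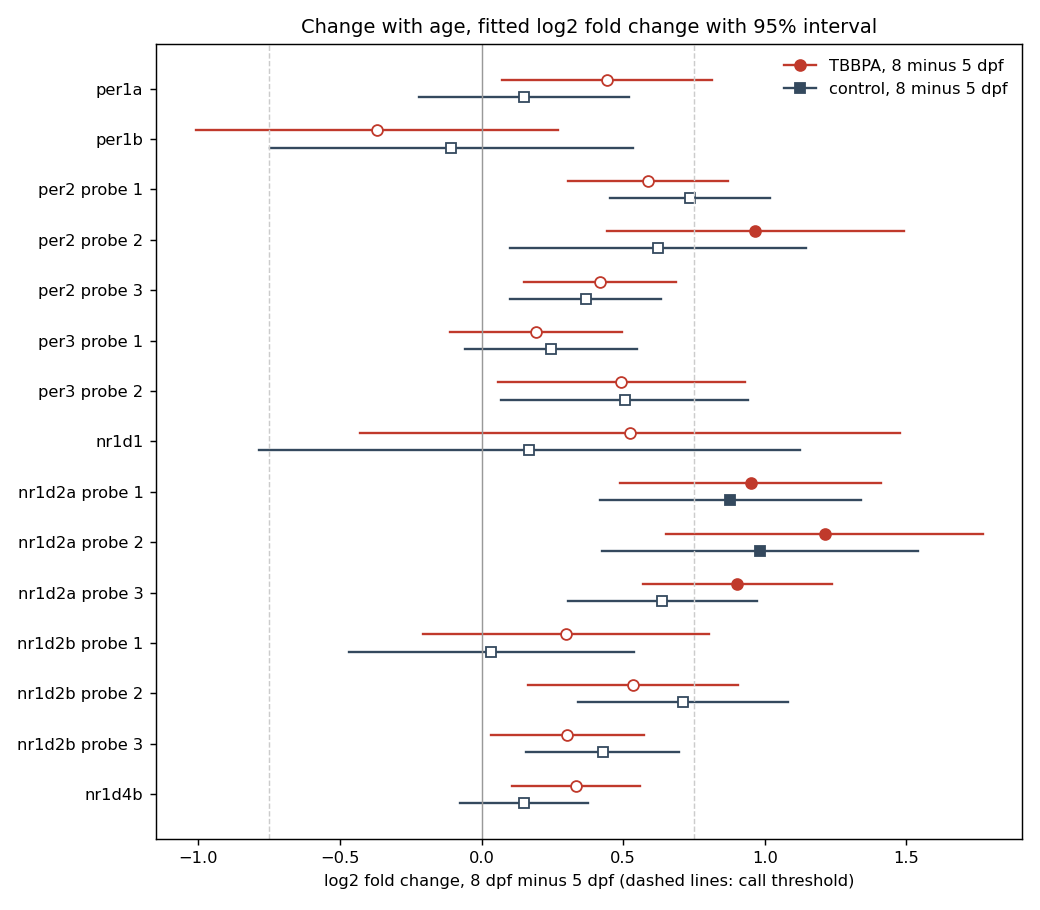
Fitted log2 fold change, 8 minus 5 dpf, of each probe in TBBPA larvae (red circles) and controls (blue squares) with its 95% interval from limma. Filled marks are called, and dashed lines stand at -0.75 and 0.75. The nr1d2a and per2 probes lie to the right of 0 in both treatments, and the intervals of per1b and nr1d1 span 0.

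The other genes of the clock pathway were taken from a list of 53 names, of which 30 genes that are not members were measured, on 51 probes. At 5 dpf 24 of these probes (12 genes) fell and 5 probes (5 genes) rose, with a median of -0.21, where 2.84% of all probes fell and 4.23% rose. At 8 dpf 16 probes (8 genes) fell and 1 rose, with a median of -0.26, where 0.696% of all probes fell and as many rose. These counts moved with single samples: at 5 dpf 4 probes fell and 0 rose without control replicate 1 of 5 dpf, and at 8 dpf 1 fell without TBBPA replicate 1 of 8 dpf and 3 fell without control replicate 1 or 2 of 8 dpf. With plates as replicates 0 fell and 0 rose at either age.

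The activators and output genes moved as follows. The activator bmal1a, whose transcription Rev-erb proteins repress, rose at 5 dpf (0.56, adjusted p = 0.00501) and gave 0.37 at 8 dpf (adjusted p = 0.188). The gene rorcb, of the ROR family that acts on the same DNA elements as Rev-erb, rose at 5 dpf (0.81, called). The other activators and ROR genes measured did not rise at 5 dpf: the 2 bmal1b probes gave 0.38 (adjusted p = 0.0580) and 0.15 (adjusted p = 0.237), the probes of clockb and rorb and all 5 of rorab did not pass, and 1 of 2 roraa probes fell (-0.38, adjusted p = 0.0222). No probe of clocka was analysed here. Genes of the PAR bZIP factors, transcription factors driven by the clock, gave unequal changes. The gene tefa was called lower on 4 probes at 5 dpf (-0.80 to -1.31) and 2 at 8 dpf (-0.95 and -0.92), and dbpa on 3 probes at 5 dpf (-0.77 to -0.97) and 2 at 8 dpf (-0.83 and -0.87), and tefb fell at 5 dpf (-0.60, adjusted p = 0.0225) and gave -0.52 at 8 dpf (adjusted p = 0.194). The 2 hlfa probes did not pass, at -0.12 and -0.09 at 5 dpf (adjusted p = 0.548 and 0.783) and -0.14 and -0.01 at 8 dpf (adjusted p = 0.762 and 0.996). The nfil3 genes, relatives of a bZIP repressor that opposes the PAR factors in mammals, split at 5 dpf. Called higher were nfil3-5 (2.15) and nfil3 (0.76), while all 5 nfil3-6 probes fell and 2 were called lower (-0.89 and -0.77). At 8 dpf nfil3-5 gave 1.46 (adjusted p = 0.126) and nfil3 0.42 (adjusted p = 0.154), and 2 of 5 nfil3-6 probes fell (-0.62 and -0.74).

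The genes bhlhe40 and bhlhe41 encode factors that compete with Clock and Bmal. For bhlhe40 1 of 2 probes fell at 5 dpf (-0.44, adjusted p = 0.0244) and both were called lower at 8 dpf (-1.10 and -0.78), but 0 of the 51 probes passed limma's test of the difference between the ages. Of 2 bhlhe41 probes 1 was called lower at 5 dpf (-0.89) and the other fell (-0.39, adjusted p = 0.0335). At 8 dpf the first of these fell (-0.71, adjusted p = 0.0312) and the other gave -0.52 (adjusted p = 0.0524). The cryptochrome gene cry2 fell at 5 dpf (-0.55, adjusted p = 0.00312) and was called lower at 8 dpf (-0.97). The gene cry-dash, of a photolyase-related family, was called lower at 5 dpf (-1.36) and gave -0.57 at 8 dpf (adjusted p = 0.111). Both cry5 probes fell at both ages (-0.70 and -0.69, then -0.60 and -0.44). In contrast, cry4 rose at 5 dpf (0.33, adjusted p = 0.0139) and 8 dpf (0.38, adjusted p = 0.0426). The probes of cry1b, cry3a and cry3b did not pass at either age (-0.06 to 0.46). For cry1a, the light-induced cryptochrome, 1 of 2 probes fell at 5 dpf (-0.22, adjusted p = 0.0160) and neither passed at 8 dpf (-0.26 and -0.10).

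**Figure D5:**
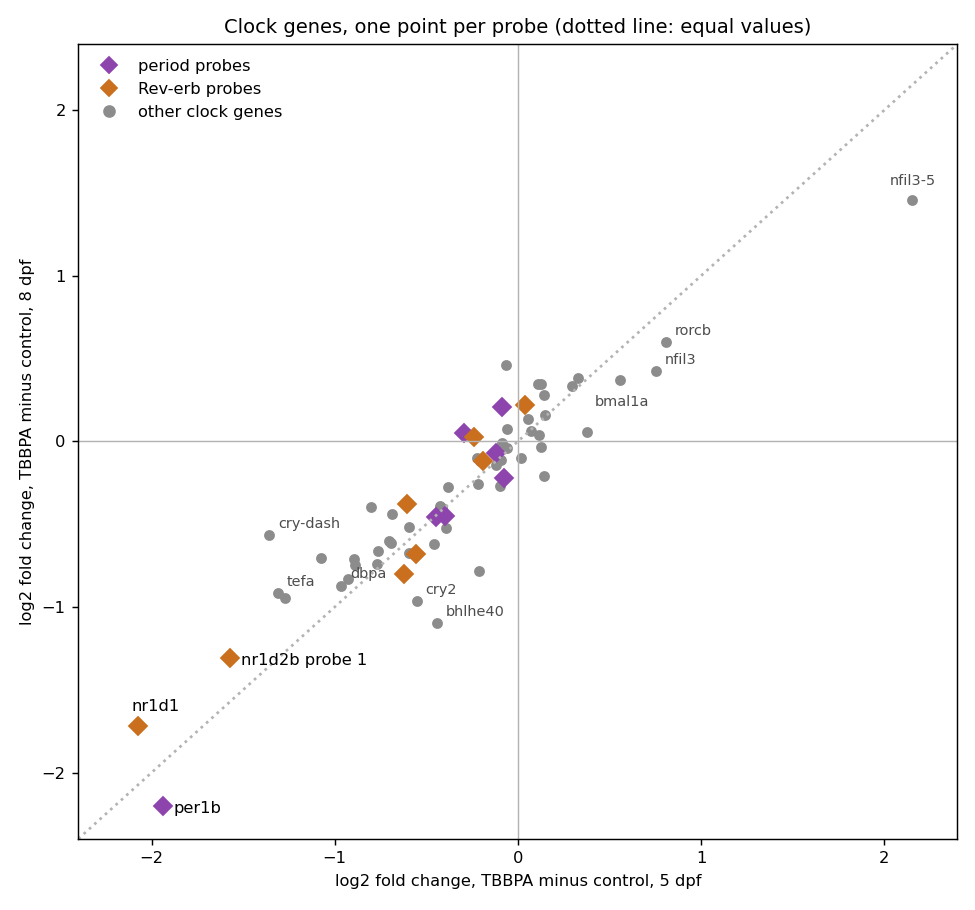
Log2 fold change, TBBPA minus control, at 5 dpf (x axis) and 8 dpf (y axis) of the period probes (purple diamonds), the Rev-erb probes (orange diamonds) and the probes of other clock genes (grey circles). The probes of per1b, nr1d1 and nr1d2b probe 1 lie lowest at both ages, and nfil3-5 highest.

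Over the 12 samples, the levels of per1b correlated with those of nr1d1 (r = 0.94) and nr1d2b probe 1 (r = 0.93) and not with those of per1a (r = -0.03). With group means removed, r was 0.81 for per1b with nr1d1, 0.62 for per1b with nr1d2b probe 1 and 0.42 for nr1d1 with nr1d2b probe 1. These are descriptions of 12 levels that share arrays and treatment. The named genes with the levels most like those of per1b were samsn1b (r = 0.96), amd1 (r = 0.95) and hsf2 (r = 0.95). For nr1d1 they were amd1 (r = 0.98), hsf2 (r = 0.95) and tefa (r = 0.95), and for nr1d2b probe 1 samsn1b (r = 0.94), tefa (r = 0.94) and hsf2 (r = 0.92). For per1a they were gpr173, ubap2l and stat6 (r = 0.98 to 0.99), for per3 probe 2 napbb, chata and the PAR bZIP gene tefb (r = 0.97 to 0.98), and for nr1d4b cyp19a1b, vwa8 and slc39a3 (r = 0.92 to 0.93). The probes of per2 were most like aasdhppt, gfra1a and gja5b, those of nr1d2a most like sypl2b, trpm1a and man1a2, the second and the third of nr1d2b most like slc24a3 and abhd2a, and the first of per3 most like cpdp (r = 0.95 to 0.99). Each of these genes was picked as the closest among all named genes, so a high r was given by the choice.

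Markers of other tissues moved at 5 dpf, some lower like the members and some higher. All 15 measured exocrine pancreas genes fell at 5 dpf. Their mean level was 0.44, 0.19 and -0.23 in TBBPA samples, against 1.78, 0.98 and 0.64 in controls. Control replicates 1, 2 and 3 thus stood in the same order as for per1b and nr1d1. This order was not that of nr1d2b probe 1, where control replicate 2 was highest (0.78), nor that of the liver genes, where it was lowest (-0.03). Of 8 liver genes 5 fell at 5 dpf, with control replicate 1 highest at 1.21, and 17 of 23 skin and cornea epithelium genes rose. So did 2 of 4 blood and 4 of 19 skeletal muscle genes, and 0 of 17 DNA replication genes passed. A gene was counted when any of its probes passed, where 2.84% of all probes fell at 5 dpf and 4.23% rose. At 8 dpf 0 of 15 pancreas, 0 of 8 liver and 0 of 23 skin and cornea genes passed in either direction. The same held for blood and DNA replication genes, and 1 of 19 skeletal muscle genes fell. The pancreas levels at 8 dpf were -0.59, -0.46 and -0.88 after TBBPA, against -0.26, -0.90 and -0.72 in controls. The probes of per1b and nr1d1 and the first of nr1d2b were called lower at both ages. A link of these calls with the other tissues was not tested at either age. Of 32 photoreceptor genes, which mark the eye itself, 6 rose and 11 fell at 5 dpf and 9 rose and 2 fell at 8 dpf. The part of these tissues in the results at 5 or 8 dpf was not tested, nor was the order of the 3 control samples.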

How the data were processed

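RNA from zebrafish eyes was amplified with oligo-dT primers and hybridised to two-colour Agilent zebrafish arrays, in a loop of 14 arrays and 12 RNA samples, each labelled equally often with Cy5 and Cy3. According to the methods, the authors quantified spots with GenePix, dropped spots that did not exceed the background by a set margin on any array, corrected background with a normal-exponential model, applied loess within arrays and used limma 3.34.4. Deposited values were log2 ratios, per the methods and dye labels Cy5 over Cy3, for 17950 probes, and were used as deposited. Loess assumes that most probes do not change. Turning single arrays round raised the residual sum of squares to between 1.02 and 1.88 times its value, and 0 of 14 lowered it. A reversal of all arrays together cannot be tested.

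Of the probes, 14135 carried 1 gene symbol, 0 several, and the rest none. The symbols of 12089 were matched by accession to a RefSeq table (GRCz12tu), used for names alone, which updated 3016.

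A limma 3.58.1 model (R 4.3.3) had 1 coefficient per group, signed by dye, and the RNA sample as a random effect with a share common to all probes, estimated as 0 by restricted maximum likelihood. It had 11 residual and 3.61 prior degrees of freedom and a median residual SD of 0.19. Tests were two-sided, with Benjamini-Hochberg adjustment over all probes. The fit was also run on simulated ratios in which every probe had the same share of variance of the RNA sample. That simulation cannot vouch for probes whose share differs from the common one. Sample levels were least-squares estimates over the loop. Paralogs were compared by subtracting a member probe from every other probe on each array and refitting. Because the noise of the subtracted probe enters every other value, the outcome can differ with the probe subtracted, so both fits of a pair had to pass, and intervals come from least squares on the pair alone, with arrays taken as independent. This was added after seeing the data. Alternatives were a dye effect, plates as replicates, the replicate number as a block, direct arrays alone, centring, scaling, averaged probes, no fold threshold and leaving out each sample.

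Named were every member probe, and clock genes called at either age with bmal1a, clocka, cry1a and bhlhe40. Further activators, cry, ROR and PAR bZIP genes of the list were added after their values were seen. Also named were the 3 genes most correlated with each member probe, of which the closest alone is given for 9 of the 15 probes. Members and lists were chosen with earlier results of these data known.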

Additional observations from a re-analysis of the deposited data

How the results depend on the processing

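No result reversed its direction past a threshold under any alternative run. Of 600 fits of member probes under other settings than leaving out a sample, 562 kept their side of the threshold, 15 lost it and 23 gained it, and of 900 fits without 1 sample, 857, 25 and 18 did. The main fit called 3 of the 15 probes at 5 dpf, 4 at 8 dpf and 0 for the difference between the ages. For age it called 2 in controls and 4 in TBBPA larvae. Most fits that kept their side were therefore of probes that stayed uncalled. With no threshold on the fold change, 1270 probes passed at 5 dpf, 250 at 8 dpf, 11 for the difference between the ages, 5792 for age in controls and 7774 in TBBPA larvae, and 7 member probes at 5 dpf, against 127, 39, 5, 1221, 1673 and 3. With plates as replicates 0 probes were called at 5 dpf, at 8 dpf or for the difference, and 0 member probes at either age, while 10 paralog pairs passed at 5 dpf and 10 at 8 dpf. Direct arrays alone gave 21 probes and 2 member probes at 8 dpf and 3 probes for the difference. On these arrays nr1d1 (adjusted p = 0.102) and nr1d2b probe 2 (-0.67) lost their calls at 8 dpf. For the difference, a dye effect gave 3 calls and scaled arrays 19. Averaging probes per gene gave 60, 18, 2, 549 and 724 calls over fewer features. In deviation from their group means, same-numbered TBBPA and control samples correlated at -0.14, -0.11 and -0.04 at 5 dpf and at 0.68, -0.46 and 0.09 at 8 dpf. With 3 samples per group and levels that share arrays, these values cannot show whether the replicate numbers pair the samples. With the replicate block per1b gave -1.91 and -2.26 and nr1d1 -2.06 and -1.79, and the calls of member probes stayed 3 and 4. Probes called for the difference were 44 with the block, against 5.

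Without 1 sample, 18 (without control replicate 1 of 5 dpf) to 216 (without control replicate 3 of 5 dpf) probes and 2 to 4 member probes were called at 5 dpf, 6 (without TBBPA replicate 1 of 8 dpf) to 97 (without TBBPA replicate 2 of 8 dpf) and 1 to 6 at 8 dpf, 0 to 81 for the difference, 1056 to 2107 and 1 to 5 for age in TBBPA larvae, and 853 to 1451 and 0 to 5 for age in controls. Paralog pairs passing were 11 to 22 at 5 dpf and 8 to 20 at 8 dpf. Causes of these changes were not tested.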
